A study of Mus musculus with 4 samples.

Results

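The genes described here are interferon-stimulated genes outside the Ifit and Oas families: sensors of foreign RNA and DNA, the enzymes of the ubiquitin-like modifier ISG15, Trim and Parp proteins, and a mixed group of other effectors. They were chosen by symbol from a list of 50 genes. Of these, 47 had a probe set that the array's annotation assigns to a single gene, among 18194 genes so named in all. Each gene is read from whichever of its probe sets had the highest mean of the 4 arrays. Tmem173 was found under its current symbol Sting1 and the listed name Oasl under Oasl2, the only gene with that synonym. Isg15, Ifi205 and Ifi44 had no probe set assigned to them alone and are not counted. By role, 8 of the 47 are RNA sensors with their adaptor and partners, 5 are DNA sensors, 4 belong to the ISG15 system, 8 are Trim and Parp genes with the Parp partner Dtx3l, and 22 are other effectors.

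Expression was measured on 4 arrays of colonic crypt epithelium from male mice, 1 array per group, so no difference below has a replicate check and no test between groups was possible. H2B-GFP mice gave the first pair. In these mice a tetracycline-responsive element drives a histone fused to a green fluorescent protein. They received doxycycline for 7 days and then none for 2 days, and crypt cells were sorted into GFPhigh cells, which had kept the label and are called non-proliferating, and GFPlow cells, which had diluted it and are called proliferating. The second pair came from isolated crypts, with no sort named, of mice with a doxycycline-inducible β-catenin gene. The mice of the Dox minus array were untreated, and those of the Dox plus array drank doxycycline at 2.0 mg/ml for 5 days, so the drug and the induction of β-catenin cannot be told apart. The sources used here do not give the strain, the age, the number of mice behind each array or the promoter of the inducible system.

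Interferons are secreted when a cell senses viral nucleic acid or damage, and they act through receptors, Janus kinases and STAT and IRF transcription factors to switch on a large set of genes. Many of those genes encode the sensors themselves, which closes a loop that amplifies the response, and others block translation, modify proteins or trap virus particles. In the gut, type III and type I interferons act on the epithelium, and the intestinal microbiota is known to maintain a low level of this programme without infection. A common DNA element of such genes is the interferon-stimulated response element, whose core is a pair of GAAA boxes.

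In crypts after doxycycline, 34 of the 40 members that could be measured were at least 2-fold lower than in untreated crypts and 1 was at least 2-fold higher. The shares of all measured genes past these limits were 5.35% and 6.93%. The median difference of the 40 members was -2.08 on the log2 scale (4.22-fold lower in Dox plus), against 0.06 for all 9537 measured genes. Of the 20 genes with the lowest Dox difference, 10 were members: Ifi44l, Usp18, Rsad2, Ifi202b, Ddx60, Trim30a, Herc6, Dhx58, Zbp1 and Oasl2. Between dividing and non-dividing crypt cells of normal colon the differences were smaller: 2 of 38 measured members were at least 2-fold lower in GFPlow and 2 at least 2-fold higher, against 4.30% and 8.81% of all measured genes, with a median of -0.49. The members and the lists were chosen with earlier results of these data known, so the counts describe these arrays and are no independent evidence of a direction.

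Values are log2 expression values after GCRMA, a method that models and removes background. A floor of 5 was used because lower values are decided mostly by the background model. A gene counted as measured in a pair when either array was at or above the floor. Lower values were raised to it, which makes such a difference a bound on the size. All differences are log2 Dox plus minus Dox minus and log2 GFPlow minus GFPhigh. Probe sets of different genes are not compared by level. In the Dox pair the 7 members under the floor on both arrays were Tmem173, Ifi203, Ifi204, Slfn2, Slfn5, Slfn8 and Sp110. All of these except Slfn2 were also under it on both sorted arrays, as were Ifi202b, Ube2l6 and Ifi44l.

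**Figure D1:**
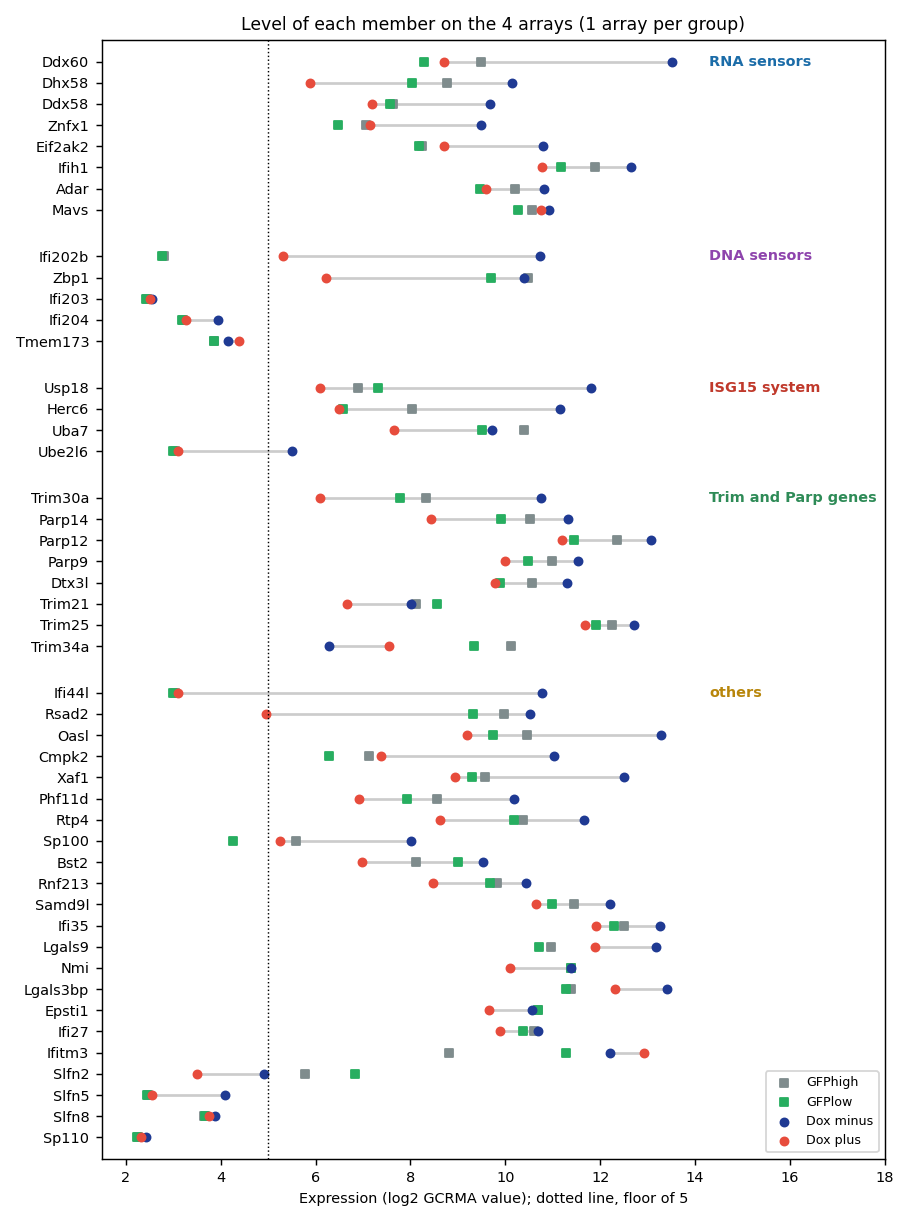
Expression (log2 GCRMA value) of the 47 members on the 4 arrays, grouped by role and ordered by the Dox difference. Squares are the sorted arrays, circles the Dox arrays, grey lines join Dox minus to Dox plus, and the dotted line is the floor of 5. Dox plus lies left of Dox minus for 38 of the 40 measured members, the exceptions being Trim34a and Ifitm3.

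The promoters of several members carry the core of the response element, and these are shown because most members lay in the same direction in the Dox pair. RefSeq promoter sequences (build GRCm38.p6, 250 bases before to 50 after a start site) were found for 38 of the 47 members. The core searched was GAAANNGAAA on either strand. It was present for 9 of 28 members past 2-fold lower that have a promoter (32.1%), against 3.69% of 7810 measured genes and 3.99% of 27025 genes with a promoter. It was also present for 2 of 5 measured members that were not lower, and for 3 of 5 that were not measured. Over all 38 members with a promoter it was present for 14 (36.8%). The members were listed as interferon-stimulated genes, of which this element is a common feature. Its share above that of all genes therefore says nothing about the Dox difference. The sequences of the 9 lower members follow, written along the gene, with 10 bases on either side where the window allows and with the core in capitals. A core on the opposite strand reads as a pair of TTTC boxes.
Ddx60, chr8:61928058-61928087, plus strand: gagcagaagaGAAACCGAAActatccttca
Ddx58, chr4:40239804-40239833, minus strand: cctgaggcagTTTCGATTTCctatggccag
Ifih1, chr2:62646206-62646233, minus strand: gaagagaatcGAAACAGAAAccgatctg
Eif2ak2, chr17:78882535-78882564, minus strand: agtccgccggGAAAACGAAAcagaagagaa
Trim21, chr7:102565450-102565479, minus strand: cctctgagagGAAACTGAAAGTGAAAtttg
Trim30a, chr7:104446104-104446133, minus strand: ttgtttttagTTTCTTTTTCtcagttcctg
Rsad2, chr12:26456553-26456582, minus strand: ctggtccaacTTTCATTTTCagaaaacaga
Bst2, chr8:71537577-71537606, minus strand: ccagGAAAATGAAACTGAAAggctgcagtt
Lgals9, chr11:78984890-78984919, minus strand: atagctgtggTTTCTGTTTCctagctcagc
The core reads along the gene in Ddx60, Ifih1, Eif2ak2, Trim21 and Bst2, and on the opposite strand in Ddx58, Trim30a, Rsad2 and Lgals9. In Trim21 and Bst2 a second core overlaps the first, so that 3 GAAA boxes follow each other. The cores of Rsad2 and Bst2 lay furthest upstream, with first bases at -120 in Rsad2 and -130 and -124 in Bst2, counted from the first transcribed base as 0. That of Ifih1 lay at 32, inside the transcript. Only the core nearest to a start site is printed for each gene, with any other core in its window. Ddx60 and Lgals9 hold a separate core further upstream, at -53 and -55, and Trim30a holds another at -36 from a different start site. The remaining members with the core and a measured level were these.
Ifitm3, chr7:141010723-141010752, minus strand: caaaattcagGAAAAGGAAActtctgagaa
Trim34a, chr7:104244457-104244486, plus strand: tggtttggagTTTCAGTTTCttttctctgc
Ifitm3, which holds a separate core at 19, was not lower in Dox plus, and Trim34a has probe sets that went both ways. The second element searched, the gamma-activated site TTCNNNGAA, was present for 5 of the 28 lower members (17.9%), namely Eif2ak2, Adar, Ifi202b, Bst2 and Ifi35, and for 8% of measured genes. Ifitm3 holds it too, which makes 6 of the 38 members with a promoter (15.8%). The site of Bst2 overlaps its response element core. A match is a run of letters and not a measured binding site, and the absence of a match in this window says nothing about more distant elements.

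**Figure D2:**
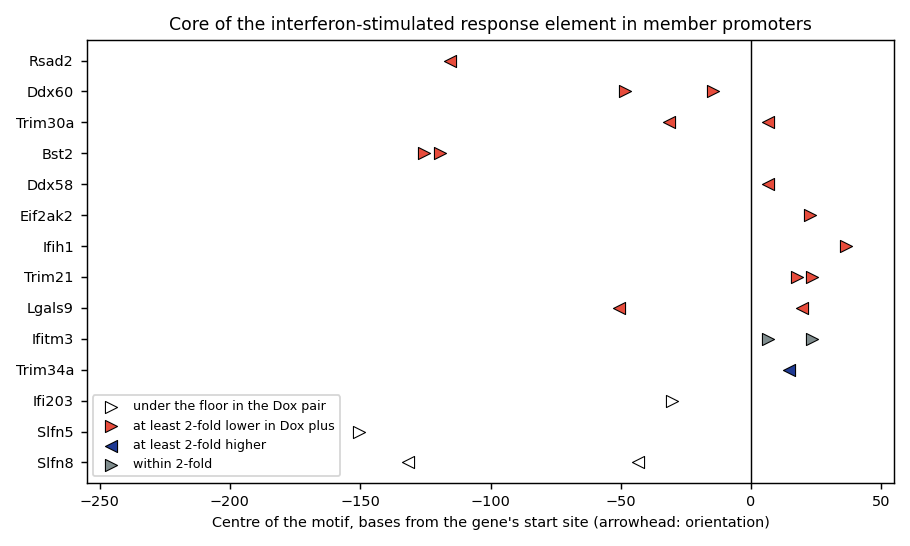
Position of the response element core in the promoters of the 14 members that hold it, as bases from the start site, with the arrowhead giving its orientation and the colour the call in the Dox pair. Trim30a and Slfn8 have more than 1 annotated start site. The marks of Trim30a are separate cores, each placed against its own start site. Those of Slfn8 are the same core placed against different start sites. The cores of the 9 lower members lie on both sides of the start site, and Ifitm3 and Trim34a hold cores just after it.

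Among RNA sensors, 7 of 8 were at least 2-fold lower after doxycycline, and the group's median was -2.21 (4.64-fold). Ddx60, a helicase described as a cofactor of RNA sensing, read 9.50 in GFPhigh, 8.28 in GFPlow, 13.52 in Dox minus and 8.71 in Dox plus. Dox minus stood apart from the other 3 arrays, the Dox difference was -4.81 (28.1-fold), and the second probe set of the gene gave -5.22. Ddx60 was also 1 of the 2 members at least 2-fold lower in GFPlow, by -1.22. Dhx58, which encodes LGP2, a helicase that tunes the signalling of the other sensors, read 8.77 in GFPhigh, 8.04 in GFPlow, 10.15 in Dox minus and 5.88 in Dox plus. Its Dox difference was -4.27 (19.3-fold), and here Dox plus lay below both sorted arrays. Ddx58, which encodes RIG-I, the sensor of RNA with an unprocessed triphosphate end, read 7.63, 7.56, 9.69 and 7.18 in the same order. Its Dox difference was -2.50, with Dox plus close to the sorted arrays. Ifih1, which encodes MDA5, the sensor of long double-stranded RNA, had a smaller difference of -1.86 from a level of 12.64 in Dox minus.

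Eif2ak2, the kinase PKR that stops translation when it binds double-stranded RNA, differed by -2.09, and its other probe sets by -2.12 and -1.75. Znfx1, a helicase that senses viral RNA, differed by -2.34, and Adar, which edits adenosines in double-stranded RNA, by -1.22. Mavs, the mitochondrial adaptor through which RIG-I and MDA5 signal, was the member of the group nearest to 0. It read 10.57 in GFPhigh, 10.26 in GFPlow, 10.92 in Dox minus and 10.76 in Dox plus, a Dox difference of -0.17, with -0.26 in its second probe set. Ddx58 and Ifih1, which encode RIG-I and MDA5, therefore differed by 2-fold or more between the Dox arrays while their shared adaptor did not.

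Of the DNA sensors, only Zbp1 and Ifi202b could be measured in the Dox pair, and both were lower in Dox plus by 17.8-fold or more. Zbp1, a sensor of left-handed nucleic acids that can start necroptosis, read 10.47 in GFPhigh, 9.70 in GFPlow, 10.39 in Dox minus and 6.23 in Dox plus. Here Dox plus stood apart from the other 3 arrays, unlike for Ddx60. The difference was -4.16 (17.8-fold) and the second probe set gave -4.54. Ifi202b, a DNA-binding protein of the p200 family that restrains the Aim2 inflammasome, read 2.80 in GFPhigh, 2.77 in GFPlow, 10.72 in Dox minus and 5.32 in Dox plus. It was under the floor on both sorted arrays, high in Dox minus and just above the floor in Dox plus, a difference of -5.41 (42.4-fold). The name of its only single-gene probe set ends in _s_at, a suffix that marks cross-hybridisation or shared transcripts. Ifi203 and Ifi204, of the same family and the same cluster on chromosome 1, stayed between 2.43 and 3.95 on all arrays in the probe sets assigned to them alone. Tmem173, which encodes STING, the adaptor of cytosolic DNA sensing, read 3.86, 3.85, 4.16 and 4.38, under the floor throughout. The level of Ifi202b is known to differ between inbred mouse strains, and so do MHC class I genes. One of these, H2-Q2, which is no member and was chosen after its values were seen, read 11.05 in GFPhigh, 9.72 in GFPlow, 3.79 in Dox minus and 13.01 in Dox plus, at least 8.01 higher. A part of strain differences in these results was not tested.

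ISG15 is a ubiquitin-like protein that is attached to other proteins by an activating enzyme, a conjugating enzyme and a ligase, and removed by the protease Usp18. In the Dox pair all 4 genes of this system lay below 0, 3 of them by 2-fold or more, and the median was -3.36. Usp18, which also dampens signalling at the type I interferon receptor, read 6.90 in GFPhigh, 7.31 in GFPlow, 11.80 in Dox minus and 6.10 in Dox plus. The difference of -5.70 (52.0-fold) ranked 2 from the lowest among 9537 measured genes, behind the bound of Ifi44l. Herc6, the main ISG15 ligase of the mouse, read 8.02, 6.58, 11.15 and 6.49. Its Dox difference was -4.65 (25.2-fold), and at -1.45 it was the member with the lowest GFP difference. Uba7, the activating enzyme, read 10.39, 9.51, 9.71 and 7.64. Its untreated level lay within the range of the sorted arrays, and Dox plus was -2.07 from it. Its other probe sets gave -1.03 and -1.15, the last a bound. Ube2l6, the conjugating enzyme, reached the floor only in Dox minus, at 5.51, so its difference of -0.51 is a bound on the size. Enzymes that add ISG15 and the protease that removes it thus lay in the same direction in the Dox pair.

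Trim and Parp genes had the smallest median of the role groups, -1.53 (2.88-fold), and 7 of 8 were at least 2-fold lower. Trim30a, a ligase that restrains inflammatory signalling, read 8.32 in GFPhigh, 7.77 in GFPlow, 10.76 in Dox minus and 6.09 in Dox plus, a difference of -4.68 (25.6-fold). Trim21, a cytosolic antibody receptor and ligase, differed by -1.36, but its second probe set gave -0.22. Trim25, a ligase that acts on RIG-I, was lower by the least in this group, at 12.26, 11.92, 12.72 and 11.67 and a difference of -1.05 that lies just past 2-fold.

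The ADP-ribosylating Parp proteins all lay in the same direction. Parp14 read 10.51, 9.90, 11.32 and 8.43, a Dox difference of -2.89 (7.43-fold). Parp12 read 12.36, 11.45, 13.07 and 11.19, a difference of -1.88. Parp9 and Dtx3l, which encode a Parp and a ubiquitin ligase that form a complex, lie side by side on chromosome 16 with overlapping annotated spans (35938470 to 35972621 and 35926515 to 35939027, GRCm38.p6). Their Dox differences were close, at -1.54 and -1.51, and so were their GFP differences, at -0.51 and -0.68.

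Trim34a was the only member past 2-fold in the other direction, and its probe sets contradicted each other. The probe set with the higher mean read 10.11 in GFPhigh, 9.33 in GFPlow, 6.28 in Dox minus and 7.55 in Dox plus, a difference of 1.27. The other read 4.17, 3.72, 6.51 and 3.60, which gives -1.51 or beyond. No direction is given for Trim34a. It was the only 1 of 24 members with several measured probe sets whose probe sets went both ways in the Dox pair. For the other 23 all were below 0. Of 73 measured probe sets of members, 71 were below 0 in the Dox pair and 59 at least 2-fold lower.

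**Figure D3:**
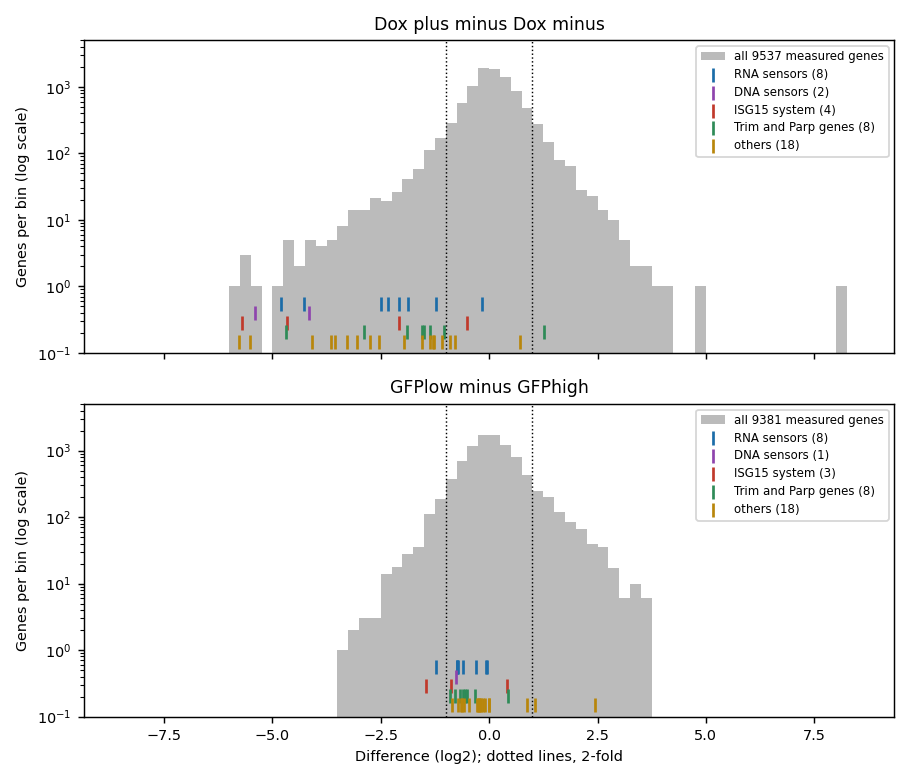
Differences (log2) in the Dox pair (top) and the GFP pair (bottom): grey bars count all measured genes per bin on a log scale, coloured ticks are members by role, and dotted lines mark 2-fold. Ticks with an array under the floor are bounds (3 in the Dox pair and 1 in the GFP pair). In the Dox pair 34 of 40 ticks lie left of the lower line, and in the GFP pair 34 of 38 lie between the lines.

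The mixed group of other effectors had a median of -2.26 (4.78-fold) over 18 measured members, of which 15 were past 2-fold. Ifi44l, whose product is induced by interferon and has no settled activity, read 3.03 in GFPhigh, 3.0 in GFPlow, 10.77 in Dox minus and 3.11 in Dox plus. It reached the floor in Dox minus alone, and the difference was -5.77 or beyond (at least 54.7-fold). Its other probe sets gave bounds of -4.83 and -0.09, the last from a level of 5.09 in Dox minus. Rsad2, which encodes viperin, an enzyme that makes a chain-terminating nucleotide, read 9.98, 9.32, 10.52 and 4.96. Here Dox plus alone was low, and the difference was -5.52 or beyond (at least 46.0-fold). Its neighbour Cmpk2 on chromosome 12, a mitochondrial nucleotide kinase, read 7.14, 6.28, 11.03 and 7.38. Their Dox differences were both large (-3.65 for Cmpk2), but Rsad2 was low in Dox plus against the sorted arrays whereas Cmpk2 was high in Dox minus against them. Oasl2, an oligoadenylate synthetase-like protein matched to the listed name Oasl, read 10.47, 9.74, 13.28 and 9.19, a difference of -4.09.

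Xaf1, an inducer of apoptosis, differed by -3.55, although its second probe set gave -0.98. Phf11d (-3.27), Rtp4 (-3.04), a receptor transport protein, and the nuclear body gene Sp100 (-2.75) followed. The virion tether Bst2 read 8.11 in GFPhigh, 9.0 in GFPlow, 9.52 in Dox minus and 6.99 in Dox plus, a Dox difference of -2.54. The large ubiquitin ligase Rnf213 differed by -1.97 and the translation inhibitor Samd9l by -1.56. Ifi35 and Nmi, whose products bind each other, differed by -1.36 and -1.28. The galectin Lgals9 and the galectin ligand Lgals3bp had smaller differences, of -1.29 and -1.09, from levels of 13.18 and 13.41 in Dox minus. Epsti1 (-0.91) and Ifi27 (-0.80) did not reach 2-fold. The members nearest to the threshold were thus Epsti1 just short of 2-fold and Trim25 and Lgals3bp just past it.

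Ifitm3 was the exception among effectors with 1 probe set. It encodes a membrane protein that blocks the entry of viruses. Ifitm3 read 8.82 in GFPhigh, 11.28 in GFPlow, 12.20 in Dox minus and 12.91 in Dox plus. It was the highest of the members in the GFP pair, at 2.45 (5.48-fold higher in GFPlow), and the Dox difference was 0.72, under 2-fold. Slfn2, a protein that keeps T cells quiescent, was the other member at least 2-fold higher in GFPlow, at 5.77 in GFPhigh and 6.84 in GFPlow, a difference of 1.06. In the Dox pair Slfn2 was under the floor, at 4.92 and 3.50. Of 10 T and NK cell markers on the array, 1 was measured in the GFP pair, Itgae, at 5.50 in GFPhigh and 6.53 in GFPlow. The mean of that list, 2.96 in GFPhigh and 3.46 in GFPlow, lay under the floor. The part of such cells in the Slfn2 difference was not tested.

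In the GFP pair 31 of the 38 measured members had lower values in GFPlow, against 46.8% of all measured genes, but 34 were within 2-fold. The role group medians were -0.66 for RNA sensors over 8 genes, -0.88 for the ISG15 system over 3, -0.58 for Trim and Parp genes over 8 and -0.22 for the others over 18. Zbp1, the only DNA sensor measured there, differed by -0.77. Besides Ifitm3 and Slfn2, the members above 0 were Bst2 (0.88), Trim21 (0.44), Usp18 (0.41), Nmi (0.00) and Epsti1 (0.00). Usp18 thus lay near the bottom of the Dox pair and above 0 in the GFP pair. Eif2ak2, Epsti1 and Mavs had probe sets that went both ways in the GFP pair, for Eif2ak2 at -0.06 and 0.73. Of 62 measured probe sets of members, 51 were below 0 there, 8 at least 2-fold lower and 2 at least 2-fold higher. Further probe sets past 2-fold lower were those of Parp14 (-1.60), Rsad2 (-1.45), Xaf1 (-1.44), Sp100 (-1.29), Trim25 (-1.14) and Zbp1 (-1.11). Conversely, another probe set gave -0.86 for Ddx60 and a bound of -0.44 for Herc6. Over the 37 members measured in both pairs, the differences correlated at r = 0.38 (Spearman 0.34), and at r = 0.23 without Ifitm3 (Spearman 0.30). This is a description across genes, which share arrays and are not independent.

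**Figure D4:**
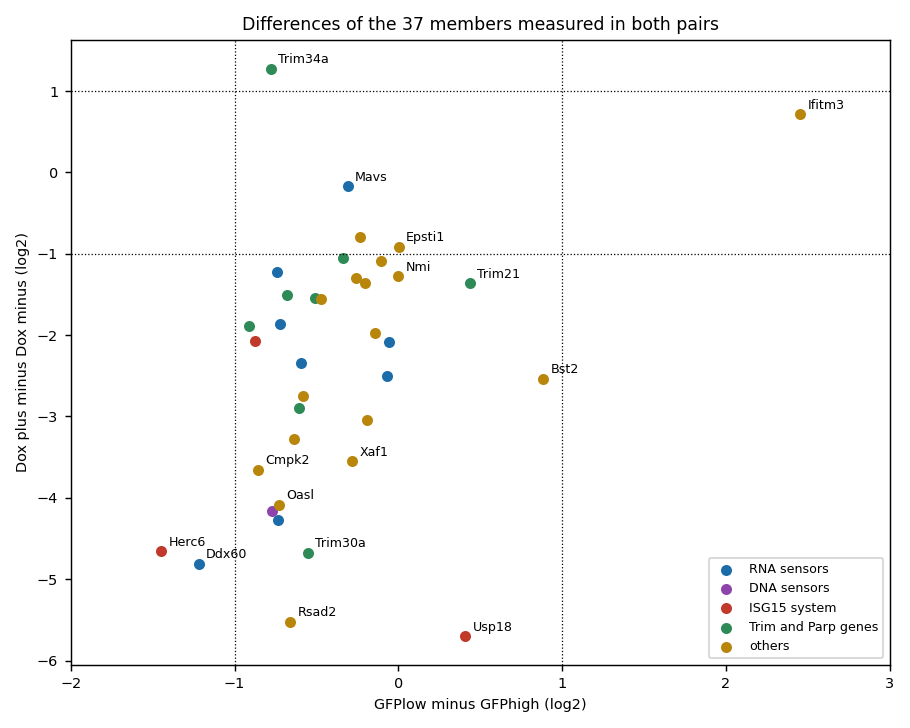
The Dox difference (log2, vertical) against the GFP difference (log2, horizontal) of the 37 members measured in both pairs, coloured by role, with dotted lines at 2-fold. Most points lie below -1 on the vertical axis and between -1 and 0 on the horizontal axis, Herc6 and Ddx60 lie past 2-fold on both, and Ifitm3 stands alone at the upper right.

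Set across the pairs, members stood apart on either Dox array. Of 41 members at or above the floor on any array, 18 were at least 2-fold higher in Dox minus than on both sorted arrays (43.9%), against 9.18% of all 9895 such genes. In Dox plus, 1 member, Ifitm3, was at least 2-fold above both sorted arrays, against 10.5% of genes. At the same time 14 members (34.1%) were at least 2-fold below both sorted arrays in Dox plus, against 13.7% of genes, among them Zbp1, Rsad2, Dhx58 and Trim30a. Dhx58, Trim30a, Rtp4 and Phf11d were in both sets, high in Dox minus and low in Dox plus. The pairs differ in the mice, the sort and the history of doxycycline, and it is not known which arrays were normalised together, so these cannot be told apart in a difference across pairs. Over all probe sets the arrays correlated at r = 0.985 within each pair and between 0.930 and 0.941 across pairs.

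Upstream genes of the pathway were mostly within 2-fold in the Dox pair. Of 11 listed interferon genes, 7 had a probe set assigned to them alone, Ifnb1 and Ifng among them. All 7 were under the floor on the 4 arrays. Ifne, Ifnk and the type III genes Ifnl2 and Ifnl3 had no such probe set, so their levels are not known. Interferon genes outside the list were not looked at. None of 8 measured receptor and Janus kinase genes was past 2-fold, and their median was -0.24. Of 8 measured STAT and IRF genes, 3 were past 2-fold, all lower in Dox plus, namely Irf7 (-2.58), Stat2 (-2.43) and Irf9 (-1.04), the last 2 being subunits of the factor that binds the response element. Of 10 kinases and adaptors downstream of the sensors, 1 was lower, the necroptosis effector Mlkl (-1.40). Of 8 other nucleic acid sensing genes, 2 were lower, the nucleotide hydrolase Samhd1 (-1.25) and the receptor Tlr3 (-1.04). None of 5 measured genes on a list of Socs, Ptpn and Pias inhibitors of the pathway was past 2-fold, and Socs1 was under the floor. Usp18 (-5.70), which also dampens this signalling, is a member and was not on that list. All 9 measured Ifit, Oas and Mx genes were lower, with a median of -3.73. That list includes Oasl2.

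All 4 arrays read as epithelium. The 8 epithelial markers averaged between 13.98 and 14.34 on each array, and differed by -0.43 to 0.57 in the Dox pair. Of 28 markers of T, NK, B, plasma and myeloid cells on the array, 11 were measured in the Dox pair, and 2 of these, Jchain and Laptm5, were past 2-fold, both lower in Dox plus. The median of the 11 was -0.19. Mean levels of the T and NK list were 4.62 in Dox minus and 4.44 in Dox plus, of the B and plasma list 4.19 and 3.47, and of the myeloid list 4.99 and 4.87, and 16 of the 28 were under the floor on all arrays, Cd3e, Cd79a and Tyrobp among them. Others were above it in the Dox pair. The granule protease genes Gzma and Gzmb read 8.0 and 6.75 in Dox minus and 7.82 and 6.49 in Dox plus. The pan-leukocyte gene Ptprc read 7.19 and 6.58, the myeloid gene Lyz2 5.59 and 6.30, and the macrophage gene C1qa 7.97 and 7.94. On the sorted arrays these 5 genes were under the floor except Lyz2 in GFPlow, at 5.04. Other markers of these lists were above it there. Cd14 read 13.39 in GFPhigh and 13.60 in GFPlow, against 10.05 in Dox minus and 10.03 in Dox plus. Itgae read 5.50, 6.53, 6.75 and 6.93 in the same order, and Csf1r 5.52, 5.51, 5.67 and 5.59. Laptm5 reached 5.53 in GFPlow and Ighm 5.14 in GFPhigh. Plasmacytoid dendritic cells, a main source of interferon, were tracked by a list that shares Bst2 with the members, and its mean level was 6.62 in untreated and 6.09 in treated crypts. Without Bst2 the means of its other 5 genes were 6.04 and 5.91. Its defining marker Siglech was under the floor on all arrays. The endothelial and smooth muscle lists had no measured gene, and of 8 fibroblast markers Vim (-1.78) and Pdgfrb (-0.32 or beyond) were measured, with means of the list of 4.27 and 3.73. The part of these cells in the differences of the members was not tested. In such bulk samples fewer cells of a type and less RNA per cell cannot be told apart.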

How the data were processed

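Total RNA was extracted with Trizol and labelled as biotin cRNA, per the labels' protocols. The authors deposited log2 values of 45101 probe sets on each array. The submitters' processing notes name GCRMA, and the sources used here give neither its version nor the arrays it was run on together. The values ran from 0.47 to 16.27, a range that fits log2 and not linear values. The platform annotation gave 1 symbol for 34958 probe sets, several for 932 and none for 9211, and only the first were used for genes. No count or depth applies to arrays, and their number limits the precision.

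From these values the floor of 5, the pair differences and a 2-fold call were computed in Python 3.11.15 with pandas 2.3.3. The loess correction used statsmodels 0.14.6. The differences and the motif search were tested on simulated data. With 1 array per group no test was run across genes. All members may be named. In each role group the values on all arrays are given for the 3 members with the largest Dox difference, the member nearest 0 and any member past 2-fold in the GFP pair. Other members are given by their differences, except that all array values of Cmpk2, Bst2, Trim34a and Tmem173 were added after they were seen. The members, lists, floor and alternatives were chosen with earlier results of these data known, and genes outside them were chosen after their values were seen. The alternatives were floors of 4 and 6, no floor, quantile normalization, loess (span 0.4), centring on the median, the mean of measured probe sets, no probe sets whose names mark cross-hybridisation or shared transcripts (suffixes _x_at, _s_at, _a_at), and a 3-fold threshold.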

Additional observations from a re-analysis of the deposited data

How the results depend on the processing

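The count of members at least 2-fold lower in Dox plus was between 28 and 37 under the alternative settings, the lowest without the suffixed probe sets, where 32 members were measured, and 24 of 40 were past 3-fold. The median stayed between -2.21 and -1.88. Of the 34 lower members, 32 stayed past 2-fold under every floor, scaling and choice of probe set in which they were measured, and the exceptions were Trim21 (-0.79) and Trim25 (-0.88) with the mean of probe sets. Trim34a became -0.12 with the mean of probe sets. It became -1.51 without suffixed ones, so that 0 members were past 2-fold upwards under either setting, and 0 past 3-fold. The mean of probe sets also gave smaller Dox differences for Dhx58 (-3.63), Uba7 (-1.42), Parp14 (-2.17), Rsad2 (-3.77), Ifi44l (-3.56) and Xaf1 (-2.26). In the GFP pair 3 members were lower with a floor of 4, without a floor and without suffixed probe sets, the floors adding Sp100 (-1.33) and the last setting Zbp1 (-1.11). There 1 member was higher with a floor of 6 and with loess, and past 3-fold 0 were lower and 1 higher. Herc6 was -0.94 there with the mean of probe sets. The DNA sensor median in the Dox pair was -4.16 with a floor of 4, or with probe sets of several genes, and -0.68 without a floor. Without a floor it was -0.024 in the GFP pair, since genes under the floor were then counted. The ISG15 system median was -4.65 with a floor of 6, or with probe sets of several genes, and that of the others was -1.56 without a floor. Ube2l6 was -1.51 with a floor of 4. Over all genes 661 were higher and 510 lower in Dox plus (56.4% higher), and 510 and 617 with loess (45.3% higher). The median of all measured genes moved by under 0.2 in every setting. No paired analysis was possible because each group has 1 array. No array could be left out. The use of probe sets of several genes was chosen after seeing the data.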

Other observations

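Some members are read by probe sets that the annotation assigns to several genes, which were left out of the counts above. Of 10 such probe sets, 6 reached the floor in the Dox pair, 5 lay at least 2-fold below Dox minus in Dox plus and 0 above. The probe set assigned to Isg15 and Gm9706 read 9.54 in GFPhigh, 9.65 in GFPlow, 12.40 in Dox minus and 7.24 in Dox plus, a Dox difference of -5.17 and a GFP difference of 0.11. Like Usp18 (0.41), it had no lower value in GFPlow. Herc6 was lower there, at -1.45, with a bound of -0.44 in another probe set. With 1 array per group, likeness to 1 gene or the other cannot be judged.

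Several probe sets of the p200 family on chromosome 1 were high on the Dox minus array alone. The one assigned to Mndal, Ifi211, Ifi205 and Ifi204 read 4.07 in GFPhigh, 3.89 in GFPlow, 8.77 in Dox minus and 4.24 in Dox plus. One assigned to Ifi203, Ifi203-ps and 2 unnamed loci read 3.38, 3.33, 8.80 and 3.57. One assigned to Ifi202b and an unnamed locus read 2.89, 2.86, 10.76 and 5.74, a Dox difference of -5.02 beside -5.41 for the probe set assigned to Ifi202b alone. Both of these names end in _s_at, and without suffixed probe sets Ifi202b was not measured. Outside the family, Ifi44l had the same pattern. For these genes the sorted arrays, like Dox plus, were near or under the floor, whereas Rsad2 and Zbp1 were high on both sorted arrays and low in Dox plus alone. Why the members fall into these patterns was not tested.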
